A study of Mus musculus with 4 samples.

Results

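The genes described here are 9 neural cell surface molecules: Ncam1, Ncam2, L1cam, Nrcam, Nfasc, Chl1, Cntn1, Cntn2 and Ptprz1. They were chosen by name, as 9 of 22367 protein-coding genes of the GENCODE vM1 annotation on mouse genome build mm9. Every SOX3 ChIP-Seq peak that touched the gene body or the 50 kb to either side of it was taken, with no choice by score, which gave 66 of the 51271 regions of the series. The other proteins carry immunoglobulin domains, but Ptprz1 is a receptor tyrosine phosphatase that does not, and it stands with them because its outer part binds contactin 1 and related adhesion molecules.

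The study mapped where the transcription factor SOX3 sat on DNA in neural progenitor (NP) cells. All samples were R1 ES cell derived neural progenitor cells, made from 1 mouse embryonic stem cell line, R1, as monolayers in N2B27 medium for 4 days. Each of 3 biological replicates was a ChIP with a polyclonal SOX3 antibody made in goat against the human protein, and an input sample with no antibody, not analysed here, served as the background for peak calling. No group differed in genotype or treatment, so the comparisons below are between replicates, between genes and with the rest of the genome, and since RNA was not measured the NP label could not be checked against marker genes.

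Cell adhesion molecules of the immunoglobulin superfamily hold neighbouring neural cells together and guide growing axons. NCAM proteins bind their own kind on the next cell, and NCAM1 can carry polysialic acid, which weakens that grip. The L1 family (L1cam, Nrcam, Nfasc, Chl1) spans the membrane and ties to the ankyrin skeleton, and contactins (Cntn1, Cntn2) are held in the outer leaflet by a lipid anchor. Ptprz1 is abundant in neural progenitors and glia and binds contactin 1 and the secreted factors pleiotrophin and midkine. SOX3 is a SOXB1 factor of NP cells whose HMG box recognises short words such as AACAAA or AACAAT in the minor groove, often next to a POU partner.

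Overlapping peaks (1 bp or more) of the 3 lists were merged into regions, and a region with a peak of every replicate is called a region of 3 replicates. The lists held 18816, 8096 and 40543 peaks for replicates 1, 2 and 3. Of all regions, 10.5% were regions of 3 replicates and 79.8% were peaks of 1 replicate, 30116 of them in replicate 3 alone and 196 in replicate 2 alone. Replicates 2 and 3 shared peak borders far more often than the other pairs: 34.5% of their 7815 overlapping peak pairs began at the same base, against 0.922% for replicates 1 and 2 and 1.63% for replicates 1 and 3. Near the 9 genes, 5 of 7 such pairs of replicates 2 and 3 began at the same base and 2 had both borders in common, and the leading counts are therefore also given without each replicate. Whether those lists share reads was not tested. The score of a peak is 10 times the negative log10 of its p-value from the peak caller MACS, and as it grows with read number it was compared by its percentile within its own list. Read depth is unknown from the peak lists.

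Near the 9 genes lay 6 regions of 3 replicates: a pair each at Ptprz1 and Nrcam and 1 each at Chl1 and Ncam2. The stretch covered by the peak of every replicate is printed here for each of them, since these are the bases that all 3 lists call bound, cut to its central 300 bases where longer. All are plus strand mm9 sequence, and none touches an exon. Capitals mark words found on either strand, namely the SOX word AACAAA or AACAAT, its variant with G in the first place (GACAAA or GACAAT), the POU octamer ATGCAAAT or ATGCTAAT, and the SOX/POU composite, a 13-base word that sets a SOX part beside a POU part and overlaps the octamer. The Ptprz1 intron 1 and Nrcam intron 1 sequences were added after their values were seen.

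Ptprz1 promoter, chr6:22825097-22825396: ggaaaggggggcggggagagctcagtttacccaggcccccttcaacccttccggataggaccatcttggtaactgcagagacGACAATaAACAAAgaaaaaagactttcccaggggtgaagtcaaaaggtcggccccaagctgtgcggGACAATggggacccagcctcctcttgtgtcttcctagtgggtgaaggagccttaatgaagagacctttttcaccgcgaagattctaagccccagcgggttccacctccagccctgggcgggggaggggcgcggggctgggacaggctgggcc

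Ptprz1 intron 1, chr6:22872948-22873203: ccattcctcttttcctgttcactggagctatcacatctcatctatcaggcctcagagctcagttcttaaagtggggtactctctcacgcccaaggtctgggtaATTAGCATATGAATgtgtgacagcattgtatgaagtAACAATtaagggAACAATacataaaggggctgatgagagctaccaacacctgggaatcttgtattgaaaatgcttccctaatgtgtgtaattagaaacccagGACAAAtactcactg

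Chl1 intron 2, chr6:103552142-103552441: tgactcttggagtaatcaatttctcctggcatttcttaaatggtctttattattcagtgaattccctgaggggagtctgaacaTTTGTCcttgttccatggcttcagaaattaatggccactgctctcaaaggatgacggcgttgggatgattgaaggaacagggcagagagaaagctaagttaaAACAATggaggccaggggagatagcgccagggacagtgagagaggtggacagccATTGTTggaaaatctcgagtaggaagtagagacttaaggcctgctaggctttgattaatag

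Nrcam intron 1, chr12:45439154-45439430: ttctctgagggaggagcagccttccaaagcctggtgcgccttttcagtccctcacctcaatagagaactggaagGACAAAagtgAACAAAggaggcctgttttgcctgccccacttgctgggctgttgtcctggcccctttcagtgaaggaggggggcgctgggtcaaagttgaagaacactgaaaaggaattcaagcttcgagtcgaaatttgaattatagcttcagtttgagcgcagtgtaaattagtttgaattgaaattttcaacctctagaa

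Nrcam downstream, chr12:45741642-45741941: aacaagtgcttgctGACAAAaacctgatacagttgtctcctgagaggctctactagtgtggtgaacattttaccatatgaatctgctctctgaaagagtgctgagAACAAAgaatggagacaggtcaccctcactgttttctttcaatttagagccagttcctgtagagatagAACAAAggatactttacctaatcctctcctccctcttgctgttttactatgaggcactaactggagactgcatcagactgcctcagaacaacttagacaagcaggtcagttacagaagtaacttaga

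Ncam2 intron 8, chr16:81481339-81481638: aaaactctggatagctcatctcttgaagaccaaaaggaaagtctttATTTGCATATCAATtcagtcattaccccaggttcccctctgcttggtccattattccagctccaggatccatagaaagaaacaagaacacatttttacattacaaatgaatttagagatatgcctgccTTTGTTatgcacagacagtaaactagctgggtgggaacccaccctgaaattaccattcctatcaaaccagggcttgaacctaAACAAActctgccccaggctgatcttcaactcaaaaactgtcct

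At least 1 region of 3 replicates was found at 4 of the 9 genes, against 28.8% of all protein-coding genes. When a replicate was left out and a peak of the remaining pair was asked for, 5 genes with 7 regions were counted without replicate 1 (Cntn1 added), 5 genes with 8 regions without replicate 2 (Cntn2 added) and 4 genes with 6 regions without replicate 3. Under the same settings the share of all protein-coding genes was 37.3%, 39.4% and 29.4%. The count stayed at 4 of 9 at a p-value of 1e-10, with 20 kb flanks and in gene bodies alone, where the share of all genes was 15.2%, 18.5% and 8.83%. The genes are long, from 33.5 to 424 kb where the median gene is 15.4 kb, and a longer window holds more peaks. The shares of all genes above are not matched for length. Among the 7 members of 100 kb or more, 4 had such a region with 50 kb flanks, beside 44.7% of the 2401 genes of that length. Only 1 of the 9, Ptprz1, had a region of 3 replicates within 2000 bp of a start site, which 4.5% of all genes had. Any peak at all, in any replicate, was found near 8 of 9 members (90.6% of all genes) and near 7 of 7 long ones (96.7% of long genes).

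Counted per 100 kb, the joined windows (2775 kb) held 0.721 peaks per 100 kb in replicate 1, 0.252 in replicate 2 and 1.95 in replicate 3, where the whole genome held 0.709, 0.305 and 1.53. Regions of 3 replicates numbered 0.216 per 100 kb in the windows and 0.202 in the genome. No difference between these densities was tested. Peaks of replicate 3 alone made up 45 of the 66 regions (68.2%), where they make up 58.7% of all regions of the genome. The others were 12 of replicate 1 alone, 3 of 2 replicates and 6 of 3, with none of replicate 2 alone.

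**Figure D1:**
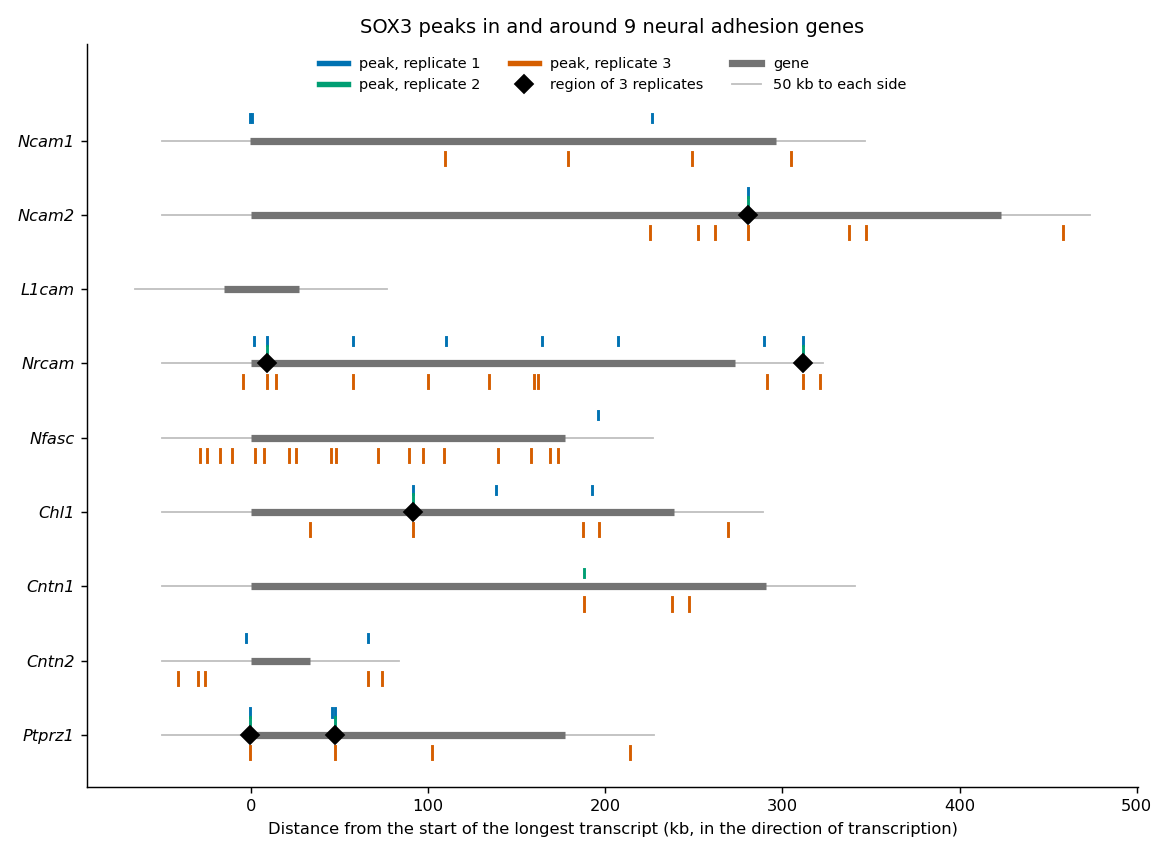
SOX3 peaks along each of the 9 genes, with distance from the start of the longest protein-coding transcript in kb on the horizontal axis (the L1cam gene reaches upstream of that start) and 1 row per gene; ticks above the line are peaks of replicates 1 and 2, ticks below are peaks of replicate 3, and black diamonds are regions of 3 replicates. The 6 diamonds lie at Ncam2, Nrcam, Chl1 and Ptprz1, Nfasc has 18 ticks of replicate 3, and L1cam has no tick.

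Ptprz1 (chr6:22825502-23002916, plus strand, 177 kb), the receptor phosphatase, had the strongest region of all 9 genes, at its own promoter. The region spans chr6:22824980-22825563, and its middle is 230.5 bp upstream of the start site. Its score was 932 in replicate 1 (rank 195), 419 in replicate 2 (rank 343) and 787 in replicate 3 (rank 334). These are percentiles of 99.0, 95.8 and 99.2, so all 3 replicates placed it among their highest peaks. The printed stretch is 59.0% GC with 11 CpG dinucleotides, and a GACAAT and an AACAAA in the same orientation begin 7 bp apart in it.

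A second region of 3 replicates lay in intron 1 of 29 of Ptprz1, an intron of 49.9 kb, at chr6:22872939-22873278 and 47.6 kb from the start. It scored 113 in replicate 1 (rank 6004), 123 in replicate 2 (rank 2333) and 216 in replicate 3 (rank 2386), at percentiles 68.1, 71.2 and 94.1. In each list these are the lowest percentiles of the 6 regions. Its shared stretch holds the SOX/POU composite, matched as ATTCATATGCTAA on the minus strand and centred 17.5 bp from the middle of the stretch, and 2 AACAAT words on the plus strand that begin 12 bp apart. The other 3 regions of the gene were peaks of 1 replicate with scores of 50.2 to 73.9, and 2 of them lay mostly in sequence that occurs more than once in the genome. With 0.721 regions of 3 replicates per 100 kb, Ptprz1 ranked at percentile 91.0 among long genes.

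The L1 family ranged from none to 19 regions per gene. Chl1 (chr6:103460870-103699671, plus strand, 239 kb), the close homologue of L1, had the second strongest region, chr6:103551895-103552526, in intron 2 of 29 (81.8 kb) and 91.3 kb from the start. Scores were 352 in replicate 1 (rank 1217), 277 in replicate 2 (rank 696) and 583 in replicate 3 (rank 578), at percentiles 93.5, 91.4 and 98.6. Every replicate thus ranked it second among the 6. The printed 300 bases hold 2 AACAAT words, 1 on each strand, and 1 GACAAA on the minus strand.

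Elsewhere in Chl1 the replicates parted. A peak of replicate 1 in intron 4, chr6:103599037-103599396, had a score of 235 at percentile 88.0, higher than 4 of the 6 regions of 3 replicates had in that list, yet replicates 2 and 3 had no peak there. That stretch is 31.7% GC and 21.9% multi-copy, and it holds neither AACAAA nor AACAAT but 3 matches to a shorter SOX core, ACAAAA or ACAAAG with T also allowed in the fifth place. The remaining 5 regions of the gene were single-replicate peaks with scores of 50.9 to 65.8, and the whole window held 3, 1 and 5 peaks of replicates 1, 2 and 3.

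Nrcam (chr12:45429872-45702951, plus strand, 273 kb), which like its relatives binds ankyrin and acts at axon contacts, had 2 regions of 3 replicates and 16 regions in all. The first, chr12:45439117-45439463, lies in intron 1 of 31 (58.8 kb), 9.42 kb from the start. It scored 123 in replicate 1 (rank 5435), 184 in replicate 2 (rank 1313) and 374 in replicate 3 (rank 1105). These are percentiles of 71.1, 83.8 and 97.3 in their lists, where the medians over all regions of 3 replicates in the genome are 82.6, 65.1 and 92.8. A GACAAA and an AACAAA on the plus strand begin 10 bp apart in its stretch.

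The second lies past the gene, chr12:45741585-45741978, 38.9 kb beyond its 3′ end, where the nearest annotated start is still one of Nrcam, 57.7 kb away. It scored 177 in replicate 1 (rank 3356), 152 in replicate 2 (rank 1724) and 270 in replicate 3 (rank 1718), percentiles of 82.2, 78.7 and 95.8. It holds 2 AACAAA and 1 GACAAA in the printed bases, all on the plus strand.

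Nrcam also had the densest cover by replicate 1, 2.14 peaks per 100 kb at percentile 93.3 of long genes, beside 0.536 in replicate 2 and 2.95 in replicate 3. Of its 8 replicate 1 peaks, 5 were alone, among them a peak 1.69 kb inside the start (score 161, percentile 79.8) and one in intron 4 (143, percentile 76.2), which holds a POU octamer and 2 AACAAA or AACAAT words. A region of replicates 1 and 3 lay near the end of intron 1, chr12:45487561-45487831, with scores of 54.5 and 82.1. In intron 3, 2 replicate 3 peaks are copies of each other: both are 90 bases wide with the same score of 56.8, they lie 1948 bp apart, and their sequences differ at 0 bases, so a read from one could not be placed apart from the other. In all, 5 of the 16 Nrcam regions lay mostly in such repeated sequence, and neither region of 3 replicates was among them.

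Nfasc (chr1:134461268-134638374, minus strand, 177 kb), neurofascin, which organises the axon initial segment and the nodes of Ranvier, had many peaks of 1 replicate and no region of 2 or 3. Replicate 3 had 18 peaks in the window, replicate 1 had 1 and replicate 2 had 0. That is 6.50 peaks per 100 kb in replicate 3, percentile 98.8 of long genes, against 0.361 in replicate 1, percentile 31.1 of long genes. The 18 peaks had scores of 50.1 to 122 with a median of 64.4, at a median percentile of 51.3 in the list, and 2 of them passed 100, a p-value of 1e-10. They were thus typical of the replicate 3 list, whose median score was 63.6. They were spread out, 13 in introns with 7 of these in intron 1, 1 in the last exon and 4 upstream, at a median spacing of 11.1 kb. The strongest, chr1:134529025-134529350 in intron 7 of 29, scored 122 (percentile 86.7).

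Of the 19 Nfasc regions, 1 was mostly multi-copy. Words of the AACAAA or AACAAT kind occurred in 2 of the 19 (10.5%, 95% Wilson interval 2.94 to 31.4%). The 19 include 1 peak of replicate 1. Such words were in 33.7% of the lone replicate 3 peaks elsewhere in the genome. In the flanks of the same width 2000 bp away, 7 of 38 held one (18.4%). GACAAA or GACAAT was in 3 of the 19 (15.8%), 4 of 38 flanks (10.5%) and 20.7% of those lone peaks. The shorter SOX core was in 6 of the 19 (31.6%), 10 of 38 flanks (26.3%) and 49.7% of those lone peaks. The composite was in 1 of the 19 and 1 flank, and the POU octamer in 0 and 1. No difference was tested.

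L1cam (chrX:71099117-71141444, minus strand, 42.3 kb), the founding member of its family, had no peak in any of the 3 lists, within the gene or in the 50 kb on either side, a window it shares with 6 other protein-coding genes. Chromosome X as a whole held 0.328, 0.118 and 0.802 peaks per 100 kb in replicates 1, 2 and 3, under the genome values above in each list. A list that keeps only peaks past a p-value of 1e-05 gives no upper limit for weaker binding.

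**Figure D2:**
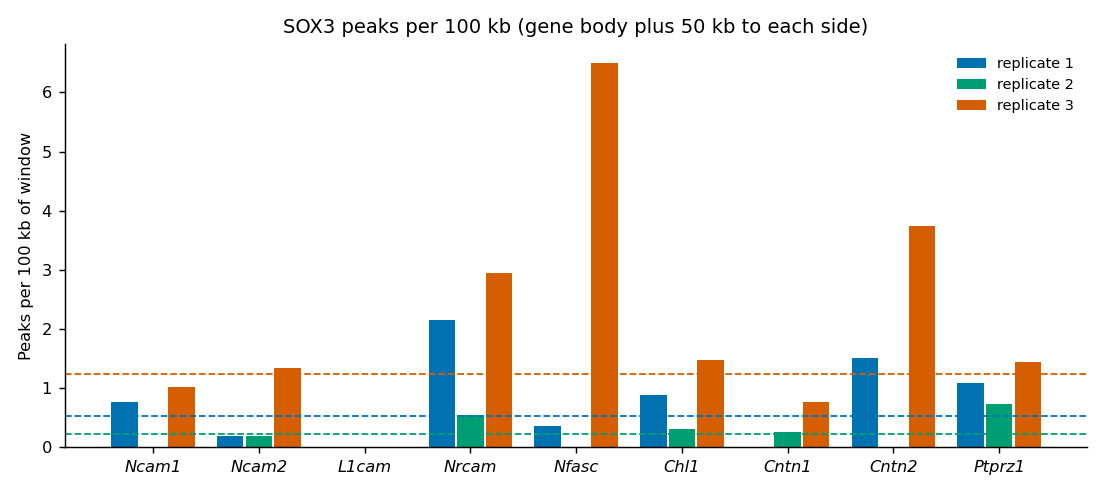
Peaks per 100 kb of window (vertical axis) for each of the 9 genes, with 1 bar per replicate; dashed lines of the same colour give the median over protein-coding genes of 100 kb or more (0.528, 0.219 and 1.24 for replicates 1, 2 and 3). Nfasc stands at 6.50 in replicate 3 with no bar in replicate 2, L1cam has no bar, and Nrcam, Chl1 and Ptprz1 lie above the dashed line in each replicate.

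Of the NCAM pair, Ncam2 had a region of 3 replicates and Ncam1 had none. Ncam2 (chr16:81200942-81624530, plus strand, 424 kb), known from olfactory axons, had 1 region of 3 replicates among its 7, chr16:81481312-81481651, in intron 8 of 17 (24.5 kb). This is 280.5 kb from the start of the longest transcript and 48.5 kb from the nearest annotated Ncam2 start. Scores were 224 in replicate 1 (rank 2425), 154 in replicate 2 (rank 1693) and 260 in replicate 3 (rank 1816), at percentiles 87.1, 79.1 and 95.5. Replicates 2 and 3 have the same first and last base here, and replicate 1 has its own borders. The stretch holds the SOX/POU composite, matched as ATTGATATGCAAA on the minus strand, 97.5 bp from the middle, and an AACAAA on each strand on the other side of the middle.

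The other 6 Ncam2 regions were peaks of replicate 3 alone with scores of 55.7 to 66.1, against 260 for the shared one. Among them, 2 lay mostly in multi-copy sequence. No peak of any replicate fell within the first 225 kb of the gene, most of which is intron 1 (232 kb).

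Ncam1 (chr9:49310257-49607027, minus strand, 297 kb), the best known neural adhesion molecule, had 7 regions and each was a peak of 1 replicate, 3 in replicate 1 and 4 in replicate 3. Scores ran from 50.6 to 72.9, where the threshold is 50. A pair of the replicate 1 peaks sat at the promoter of the gene, at chr9:49606169-49606336 and chr9:49607058-49607196. They lay 0.582 kb inside and 0.293 kb outside the start of the longest transcript, the latter 0.1 kb from the nearest annotated Ncam1 start. Their scores were 59.6 and 58.4 (percentiles 28.5 and 26.1). The region with the highest percentile, chr9:49302122-49302333 (replicate 3, score 72.9, percentile 64.0), lies past the 3′ end and nearer to the start of Ttc12. Just outside the window, 56.4 kb upstream of the gene, a region of replicates 2 and 3 at chr9:49663433-49663838 scored 58.5 in replicate 2 and 299 in replicate 3, percentiles 23.0 and 96.3.

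Neither Cntn1 nor Cntn2 had a region of 3 replicates. Cntn1 (chr15:91881596-92172398, plus strand, 291 kb), the partner of Ptprz1, had 0, 1 and 3 peaks of replicates 1, 2 and 3. Its 3 regions were the fewest of the long genes here. Its region of 2 replicates, chr15:92069287-92069528 in intron 6 of 23, scored 61.9 in replicate 2 and 95.5 in replicate 3 (percentiles 29.2 and 79.4). The 2 peaks have identical borders, and 57.0% of the 50-base words in it occur elsewhere in the genome. Outside the window, 67.8 kb upstream of the gene, replicates 1 and 2 shared a region with scores of 84.3 and 78.8 that replicate 3 lacked.

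Cntn2 (chr1:134406002-134439517, minus strand, 33.5 kb), a contactin of early axons, is the neighbour of Nfasc, and 4 of its 6 regions lie in both windows, which overlap by 78.2 kb. None of the 6 lies within the Cntn2 gene itself. The highest percentile, 75.7 in replicate 3 (score 88.1), belongs to chr1:134480328-134480562, which is 40.9 kb upstream of Cntn2 and within Nfasc. The region of replicates 1 and 3, chr1:134373493-134373765, scored 84.2 and 88.0 but lies 315 bp from the start of Rbbp5 and 32.4 kb past the end of Cntn2. The high density of Cntn2 in replicate 3, 3.74 peaks per 100 kb, therefore comes in part from the Nfasc peaks.

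**Figure D3:**
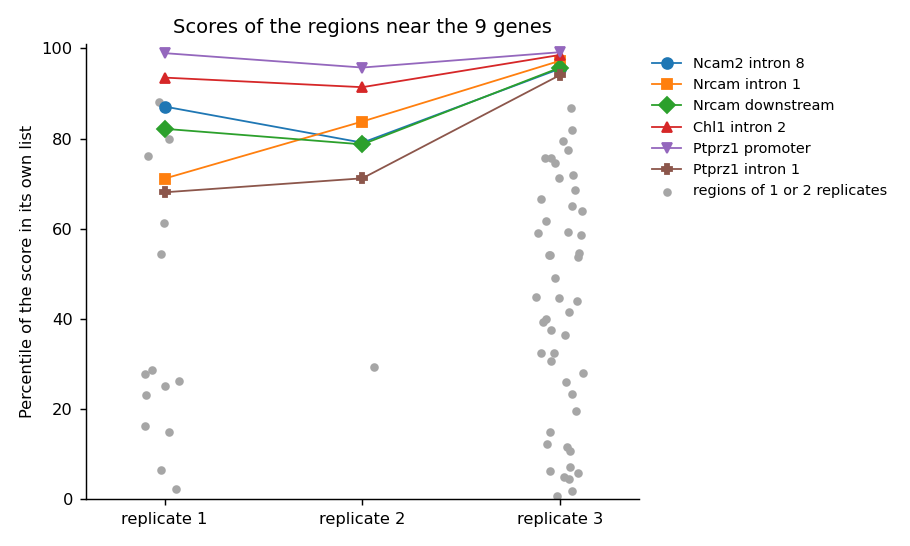
Percentile of the peak score within its own replicate's list (vertical axis) for the regions near the 9 genes; coloured lines join the 3 values of each region of 3 replicates and grey points are regions of 1 or 2 replicates, spread sideways for clarity. In replicate 3 the 6 coloured points sit between 94.1 and 99.2, above all grey points, while in replicate 1 they span 68.1 to 99.0 and some grey points, up to 88.0, lie among them.

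Set side by side, the 6 regions of 3 replicates had median scores of 201, 169 and 322 in replicates 1, 2 and 3, with median percentiles of 84.6, 81.4 and 96.5. Over all 5358 regions of 3 replicates in the genome those percentiles were 82.6, 65.1 and 92.8, and here too no difference was tested. The 45 lone peaks of replicate 3 had a median percentile of 41.5, beside 39.5 for all lone peaks of that list. By place, of the 6 regions of 3 replicates, 4 were intronic, 1 was at a promoter and 1 downstream, and none was in an exon. Of the 57 single-replicate regions 39 were intronic, 3 at promoters, 1 exonic and 14 outside the genes (5 upstream and 9 downstream). All 4 regions of 3 replicates whose middle was within a gene lay in an intron (95% Wilson interval 51.0 to 100%), in introns 1, 1, 2 and 8. Introns make up 97.1% of the bases of the longest transcripts of the 9 genes, and 88.5% of the 2040 regions of 3 replicates elsewhere that lay in a protein-coding transcript were intronic, so the count says nothing particular to these genes.

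The SOX word AACAAA or AACAAT was in 6 of the 6 regions (95% Wilson interval 61.0 to 100%) and in 62.8% of the other 5350 regions of 3 replicates. This word is common in the surroundings too, for 10 of 12 flanks of the same width 2000 bp away held it (83.3%), as did 54.8% of the flanks of the other regions. GACAAA or GACAAT was in 5 of 6 (48.5% of the others) and in 5 of 12 flanks. The short SOX core, which is ACAAAA or ACAAAG with T also allowed in the fifth place, was in 6 of 6 (82.5% of the others) and in 11 of 12 flanks. The POU octamer was in 2 of 6 (11.6% of the others) and in 2 of 12 flanks, and the SOX/POU composite was in 2 of 6 (9.68 to 70.0%) and in 0 of 12 flanks, where 6.95% of the other regions of 3 replicates hold it. Those 2 regions are Ncam2 intron 8 and Ptprz1 intron 1, both far from a promoter.

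Each word was in a smaller share of the single-replicate regions than of the 6. Of the 57, 12 held AACAAA or AACAAT (21.1%, 12.5 to 33.3%), 35 of 114 of their flanks did (30.7%), and so did 32.2% of the single-replicate regions elsewhere. GACAAA or GACAAT was in 19.3% of the 57, 20.2% of flanks and 20.2% elsewhere. The short SOX core was in 43.9%, 43.0% and 48.5%, and the POU octamer in 3.51%, 1.75% and 2.93%. No difference was tested. Single-replicate regions are narrower, with a median width of 175 bp against 370.5 bp for the 6, which by itself lowers the count of any word. The composite was in 2 of the 57 (3.51%, 0.968 to 11.9%), in 1 of 114 flanks (0.877%) and in 0.754% of the single-replicate regions elsewhere. Those 2 regions were peaks of replicate 3 alone: one in intron 1 of Nfasc (chr1:134616721-134616953, score 102) and one 30.8 kb past the end of Chl1 (chr6:103730357-103730498, score 65.8).

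**Figure D4:**
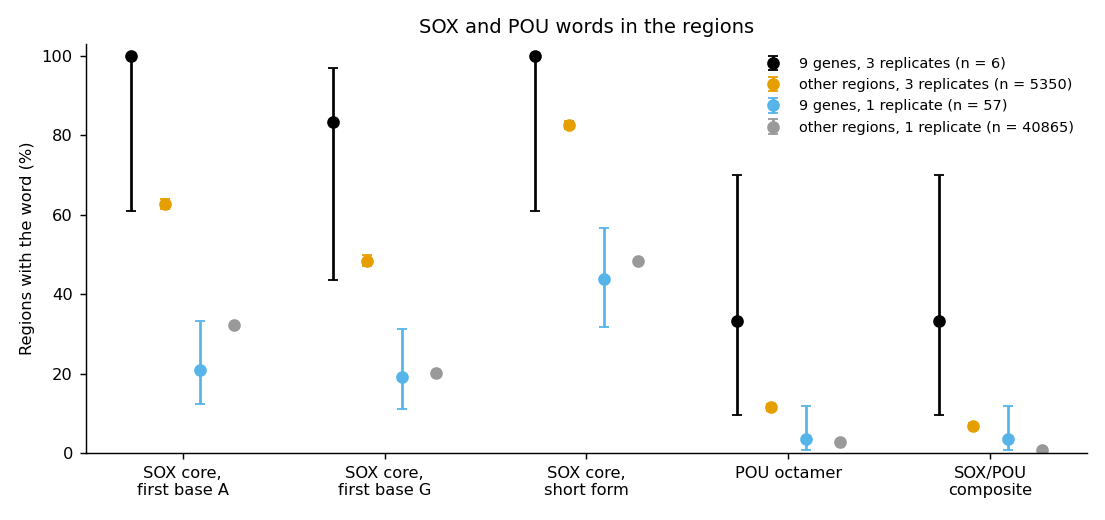
Share of regions (%, vertical axis) that hold each of 5 DNA words, for regions of 3 replicates and of 1 replicate near the 9 genes and elsewhere; points are shares and bars 95% Wilson intervals, which cover counting error only. The 6 regions of 3 replicates near the 9 genes reach 100% for the first word with an interval from 61.0%, and the 57 single-replicate regions reach 21.1%.

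For the wider family, 49 genes related to the 9 by sequence or as partners were counted in the same way. Of these, 27 had at least 1 region of 3 replicates (55.1%), including 19 of the 27 genes of 100 kb or more, beside the 28.8% of all genes and 44.7% of long genes given above. Other contactins and immunoglobulin superfamily relatives had such a region in 15 of 27 cases, with a median of 0.149 per 100 kb. Partners within or across the membrane, such as ankyrins and contactin-associated proteins, had one in 4 of 9 cases, and receptor phosphatases related to Ptprz1 in 2 of 4. Neither St8sia2 nor St8sia4, the enzymes that add polysialic acid to NCAM, had one.

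Secreted and matrix ligands had one in 6 of 7 cases, with a median of 0.783 per 100 kb, though several lie close to other genes. The highest density was at Bcan, the matrix proteoglycan brevican, with 4 regions or 3.55 per 100 kb, but each of the 4 lies downstream of it with Nes or Crabp2 as the nearest start. Mdk, which encodes midkine, had 2 (1.95 per 100 kb), one of them with its middle 0.004 kb from its own start and the other upstream, nearest to the start of Dgkz (4.72 kb). Ptn, which encodes pleiotrophin, had 3 (1.53 per 100 kb), 2 in its intron 1 and 1 upstream, within Dgki but nearest to the start of Ptn (47.0 kb). Cadm4 had 2 (1.63 per 100 kb), both nearest to the start of Zfp428, and Cadm3 had 2, the fifth highest density of the 49, one in its intron 1 but nearest to the start of Aim2 (2.13 kb), and the other within Aim2 but nearest to the start of Cadm3 (22.4 kb). Across the 49 genes, 34 of the 52 regions had the gene itself as the nearest start. In peaks per 100 kb over the 3 replicates, the related genes most like the 9 as a set were Cadm1, Cntnap5a and Sdk1, at distances of 0.69, 0.82 and 1.01 on the log2 scale.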

How the data were processed

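SOX3 ChIP-Seq was measured in 3 biological replicates of NP cells. The authors aligned reads to mm9 with Bowtie (1.0.0 in the submitters' processing notes) and called peaks per replicate with MACS against input (bandwidth 300, model fold 10 to 30, p-value threshold 1e-05). The MACS version is not given in the sources used here. The deposited lists hold a position and a score per peak, the score being 10 times the negative log10 p-value, and no read counts.

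Genes came from GENCODE vM1 (NCBIM37, the same build as mm9). Peaks sharing 1 bp or more were merged into regions. Each region was placed by its middle in the protein-coding transcript with the longest span, and a promoter was within 2000 bp of a start. A region was called mostly multi-copy where more than 50% of its 50-base words occur more than once in the genome. Shares carry 95% Wilson intervals, which cover counting error only. Python 3.11.15, numpy 2.4.6, pandas 2.3.3, scipy 1.17.1 and matplotlib 3.10.9 were used, and the counting steps were tested on simulated data.

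All 9 members are named, with each region of 3 replicates. For a member without one, the region of highest percentile is named. From the related list, the 5 genes with the most regions of 3 replicates per 100 kb and the 3 most similar in log2(peaks per 100 kb + 0.1) are named. Other regions named in the text were picked after their values were seen. The members and lists were chosen with earlier results of these data known. With 1 group there was no comparison of conditions and no test. Alternatives covered the joining of replicates, a p-value of 1e-10, equal list sizes, other windows, each replicate left out, multi-copy peaks left out, another transcript and other word windows. Input was not analysed.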

Additional observations from a re-analysis of the deposited data

How the results depend on the processing

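The number of regions of 3 replicates near the 9 genes, 6, stayed between 5 and 8 over 12 alternatives, and the number of genes with one, 4, between 4 and 5. At a p-value of 1e-10 or less, with equal list sizes of 8096 peaks and without mostly multi-copy peaks the counts remained 6 and 4. Leaving out a replicate and asking for the remaining pair gave 6 to 8 regions and 4 to 5 genes: Cntn1 was added without replicate 1 and Cntn2 without replicate 2. The density ranged from 0.196 to 0.288 per 100 kb. The number of such regions in the whole genome, 5358, moved too. It was 2684 at a p-value of 1e-10, 7755 without replicate 1 and 7899 without replicate 2. These densities are therefore not to be read beside the 0.202 given above for the genome. The share of all genes with such a region, 28.8%, fell to 15.2% at a p-value of 1e-10 and to 21.9% with equal list sizes. It fell to 8.83% in gene bodies alone and to 18.5% with 20 kb flanks. Fewer peaks or shorter windows are counted under these settings. With 100 kb flanks it rose to 42.2%, and to between 29.4% and 39.4% when a replicate was left out. It was not counted without mostly multi-copy peaks. The share of regions with AACAAA or AACAAT was 83.3% in 200 bp windows, and 75% to 100% when a replicate was left out. With the Ncam1 transcript of longest coding sequence, whose start lies within the gene, 5 of its 7 regions (the pair at the promoter and those in intron 1) lie upstream, and the promoter placement holds only for the other annotated starts. Few regions, the missing read depth and the shared borders of replicates 2 and 3 limit these values. No paired analysis was possible because there is 1 group.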

Other observations

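Some regions lie 50 to 100 kb from a member, outside the windows used above. A region of 3 replicates lies 66.2 kb past the end of Ptprz1, chr6:23069108-23069384, with scores of 71.8, 50.4 and 121 in replicates 1, 2 and 3, and its nearest start is that of Aass, 8.37 kb away. Upstream of Nfasc by 58.3 kb, a region of replicates 1 and 3 (chr1:134696694-134697186) scored 70.1 and 132, the only one of 2 or more replicates between 50 and 100 kb upstream of that gene. Past the end of Chl1, replicates 2 and 3 shared a region at 60.8 kb (scores 82.8 and 118) and replicates 1 and 3 one at 66.9 kb (52.6 and 54.6). The nearest start of both is that of Chl1, 299.7 kb and 305.8 kb away.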
